A study of Mus musculus with 2 samples.

Results

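Peroxisome biogenesis and metabolism were followed through 39 genes, matched by symbol among the 24421 genes listed for 2 libraries of 3T3-L1 cells, a mouse line that forms adipocytes in culture. They comprise 13 PEX genes, which build the organelle and import its enzymes, and 26 genes for its transporters, enzymes and proteases; all 39 symbols were found in both files. The untreated control library and the DF library came from cells of passages 10 to 13, with C57BL/6 given as strain background. All cells received insulin (1 µg/mL), dexamethasone (0.25 µM) and IBMX (0.5 mM) for 2 days, followed by insulin alone. The DF cells also had DF, a preparation of several herbs named as an anti-obesity composition (DF-GA70 in the sample title), in the medium until harvest. The sources used here do not give the DF dose, the harvest day or the number of cultures behind each library. Each group is 1 library of 1 cell line, so no difference has a replicate error, and no test between the groups was possible.

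Peroxisomes are small organelles with a single membrane that shorten very-long-chain and branched fatty acids, make the first intermediates of ether lipids and break down hydrogen peroxide. Their enzymes are made in the cytosol and carried in by the receptors PEX5 and PEX7, which dock at the membrane, release the cargo, are tagged with ubiquitin and are pulled out again for another round. In fat cells peroxisomes multiply during differentiation, and several of their enzymes are known targets of PPAR receptors.

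Values were deposited as log2, already normalized by the authors; differences are DF minus control on that scale. Genes were examined if at least 1 library reached 8.18, the median over values above 0. A difference was counted at 1.5-fold, which is 0.58 log2 units. In total, 13013 genes were above 0 in the control library, 12337 in the DF library and 11744 in both; the sequencing depth is unknown. The 140 highest sorted values are identical in both files, the lowest of them 13.98, so that values down to there give ranks. Every peroxisome gene lay below the first mismatch. That mismatch sets no limit to such ranking, so lower values may give ranks too. The kit reads transcript ends, and values are not divided by length. Of 11 mature adipocyte markers, all were examined; Adipoq, which encodes adiponectin, was at 16.08 in control cells and 16.32 in DF cells. Among 8 macrophage and 6 endothelial markers, 0 reached the floor, and the macrophage markers Adgre1 and Mrc1 were listed at 0 in both libraries. Of 6 muscle markers, Des was at 9.79 and 10.43, while Myod1 and Myog were listed at 0 in both.

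Promoter windows were matched for 32 of the 39 genes in RefSeq (GRCm38.p6, from 250 bases before to 50 after a start). None of the 32 held the PPAR response motif DR1, a pair of AGGTCA half-sites with 1 base between them, on either strand, nor its relaxed form with AGGNCA half-sites. The shares of all 27025 genes in the table with these motifs were 0.0481% and 0.451%, so few matches would appear in any set of this size. The GC box GGGCGG was in 27 of 32 windows (84.4%), against 38.2% of all genes and 74.2% of 5240 examined genes with a window. CCAAT was in 16 (50.0%), against 41.1% of all genes and 43.5% of examined ones. TATAAA was in 3 (9.38%), against 15.7% and 8.45%. The GC box, CCAAT and TATAAA searches were added after the values had been seen. A match describes letters only, not a bound site.

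The 250 bases before the start are shown for Pex26 and Pex13, the genes with the largest difference towards lower values with DF among those examined, and for Acaa1a and Acaa1b, near copies of each other. Capitals mark GGGCGG and CCAAT on either strand (ATTGG is CCAAT read from the other strand). The stretch of Pex26 lies at chr6:121183417-121183666 (plus strand), that of Pex13 at chr11:23665884-23666133 (minus), that of Acaa1a at chr9:119341044-119341293 (plus) and that of Acaa1b at chr9:119157094-119157343 (minus). The starts are those of RefSeq. In the GENCODE annotation, Acaa1a spans 119339676 to 119350299, so its stretch lies inside the gene. Pex13 starts there at 23665959, inside its stretch.
Pex26: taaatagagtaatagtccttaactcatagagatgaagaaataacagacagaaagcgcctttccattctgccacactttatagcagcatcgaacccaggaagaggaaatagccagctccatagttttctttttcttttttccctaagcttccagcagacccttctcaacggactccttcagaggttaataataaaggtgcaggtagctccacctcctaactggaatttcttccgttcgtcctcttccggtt
Pex13: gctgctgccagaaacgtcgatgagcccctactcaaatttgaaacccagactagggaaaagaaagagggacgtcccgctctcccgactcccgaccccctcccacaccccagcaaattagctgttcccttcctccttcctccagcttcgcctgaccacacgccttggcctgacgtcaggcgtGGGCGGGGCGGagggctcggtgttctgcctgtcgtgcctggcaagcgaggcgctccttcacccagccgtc
Acaa1a: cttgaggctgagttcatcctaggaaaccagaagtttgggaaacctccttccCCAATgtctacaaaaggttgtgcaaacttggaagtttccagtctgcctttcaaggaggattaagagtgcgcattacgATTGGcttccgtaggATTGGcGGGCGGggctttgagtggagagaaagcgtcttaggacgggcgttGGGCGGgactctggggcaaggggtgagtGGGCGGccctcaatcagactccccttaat
Acaa1b: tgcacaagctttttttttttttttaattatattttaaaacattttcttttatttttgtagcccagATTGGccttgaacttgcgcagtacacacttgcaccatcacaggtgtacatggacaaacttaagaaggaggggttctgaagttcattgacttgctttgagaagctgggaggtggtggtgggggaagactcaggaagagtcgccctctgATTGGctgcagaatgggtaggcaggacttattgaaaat

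The stretch before Pex26 held neither motif and 6 CpG pairs, at 42.8% G and C. That of Pex13 held 2 GC boxes, which share a base, and 17 CpG pairs at 62.8% G and C. Although Acaa1a and Acaa1b encode closely related thiolases, the stretches before their RefSeq starts differed in make-up. That of Acaa1a held 3 GC boxes and 3 CCAAT motifs, that of Acaa1b 0 and 2. All 4 genes had lower values with DF, at very different sizes, as given below.

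Across the 39 genes, lower values outnumbered higher ones among the larger differences, while the median difference was close to 0. Of 29 examined, 7 were lower with DF by at least 1.5-fold (24.1%), against 10.9% of the 6761 genes examined in all. Only Pex2 was higher by that much (3.45%), against 10.2% of all. At 2-fold, Pex26 was lower and Pex2 higher, against 3.21% and 2.56% of all genes. Both lie under the floor in 1 library and were not counted with the floor required in both; Pex26 also fell short of 2-fold with a pseudocount of 32 (-0.93) and was not examined at a floor 1 log2 unit higher. The other 21 lay within 1.5-fold. Over the 38 genes above 0 in both libraries, 18 differences were positive and 20 negative, with a median of -0.01 log2 units (quartiles -0.34 and 0.26) beside 0.04 for all 11744 genes. The 7 lower genes were Pex26, Pex13, Far1, Acox3, Pex11g, Acaa1a and Pecr, 3 of them PEX genes and 4 enzymes. Pecr, at -0.63, lay just past the limit, and Cat, at 0.51, just inside it.

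**Figure D1:**
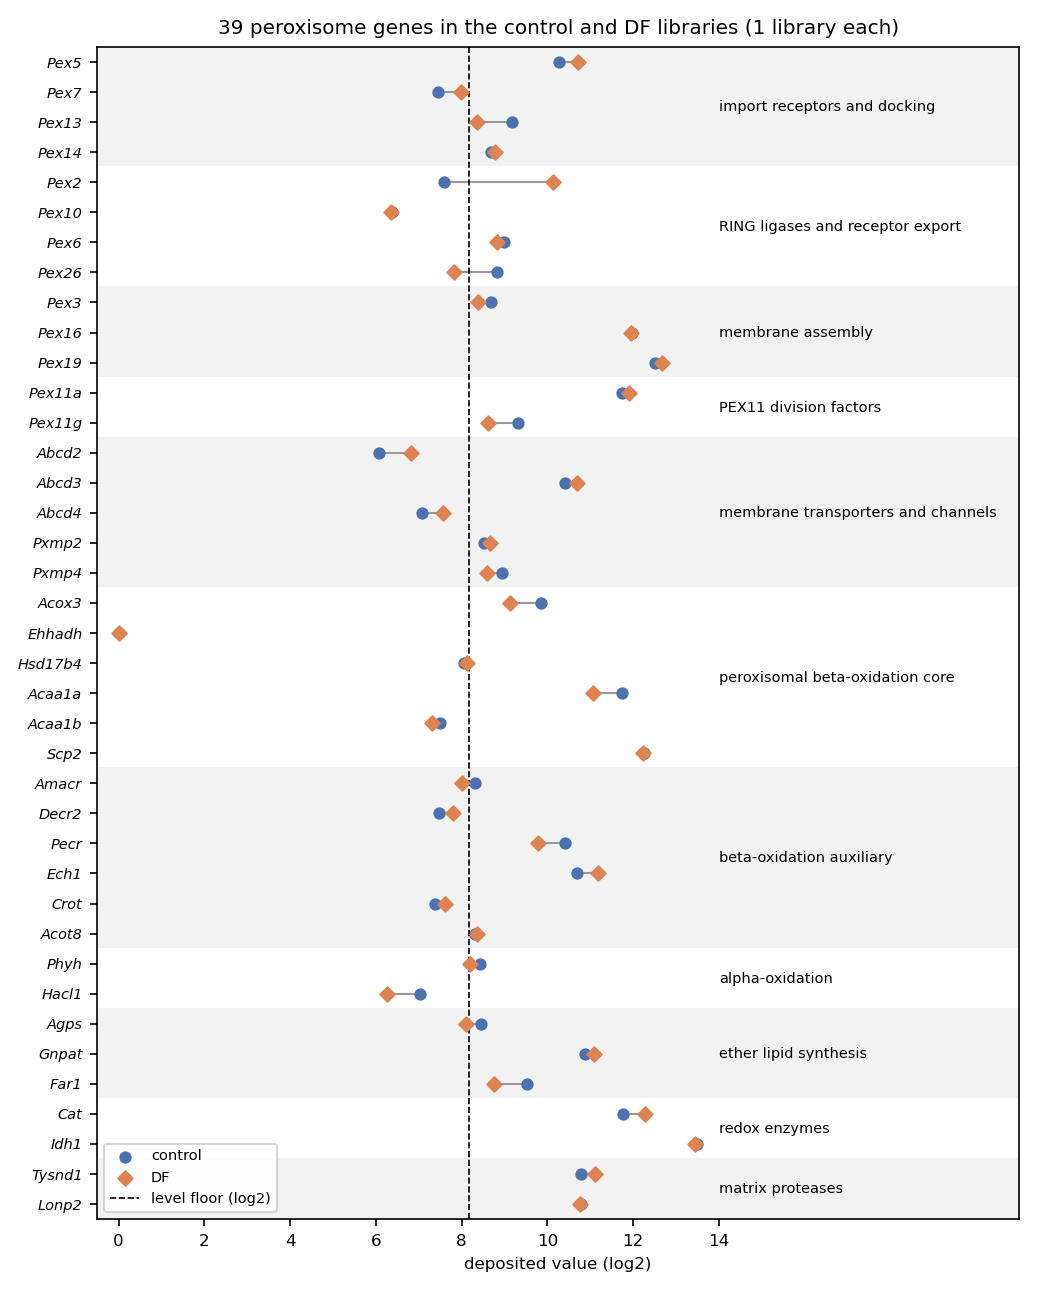
Deposited log2 value of each of the 39 peroxisome genes in the control library (blue circles) and the DF library (orange diamonds), grouped by role, with the level floor of 8.18 dashed. Pex2 has the longest line, from 7.59 to 10.13, and Ehhadh is listed at 0 in both libraries.

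Some markers of cell state differed between the same libraries. Of 8 preadipocyte markers, 4 were examined and 3 of these were lower by 1.5-fold with DF (75%, against 10.9% of all genes). They were Dlk1 (16.55 to 15.10), Pdgfra (10.99 to 9.65) and Ly6a (10.69 to 9.10). Pdgfrb was at 10.51 and 10.58, Cd34 was listed at 0 in both, and Thy1, Gata2 and Gata3 lay under the floor in both. The 8 markers had a summed linear value of 101135 in the control and 38108 with DF, most of it Dlk1. The mature adipocyte list summed to 622788 and 711893. Cidec, a lipid droplet protein, was the 1 of 11 past 1.5-fold (9.09% higher, against 10.2% of all genes). Dlk1 and several of the adipocyte markers lie among the 140 highest values, which are identical in both files once sorted and so give ranks. Macrophage markers summed to 35.6 and 63.5. Endothelial markers summed to 89.8 and 11.5, the former being Pecam1 alone (6.49 and 2.83, under the floor in both). In such bulk libraries, fewer cells of a type and less RNA per cell cannot be told apart. The part of these shifts in the peroxisome values was not tested.

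The spread between these 2 libraries depended on level. Among examined genes with a mean under 9, 17.1% were higher and 16.9% lower by 1.5-fold, and 13 peroxisome genes lay there, 1 higher and 3 lower. Of the 4790 genes with a mean of 9 or more, 7.43% were higher and 8.37% lower. In that range were 16 peroxisome genes, 0 higher and 4 lower (Acox3, Acaa1a, Pecr and Far1). Without replicate libraries, variation between cultures and an effect of DF cannot be told apart in these shares.

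**Figure D2:**
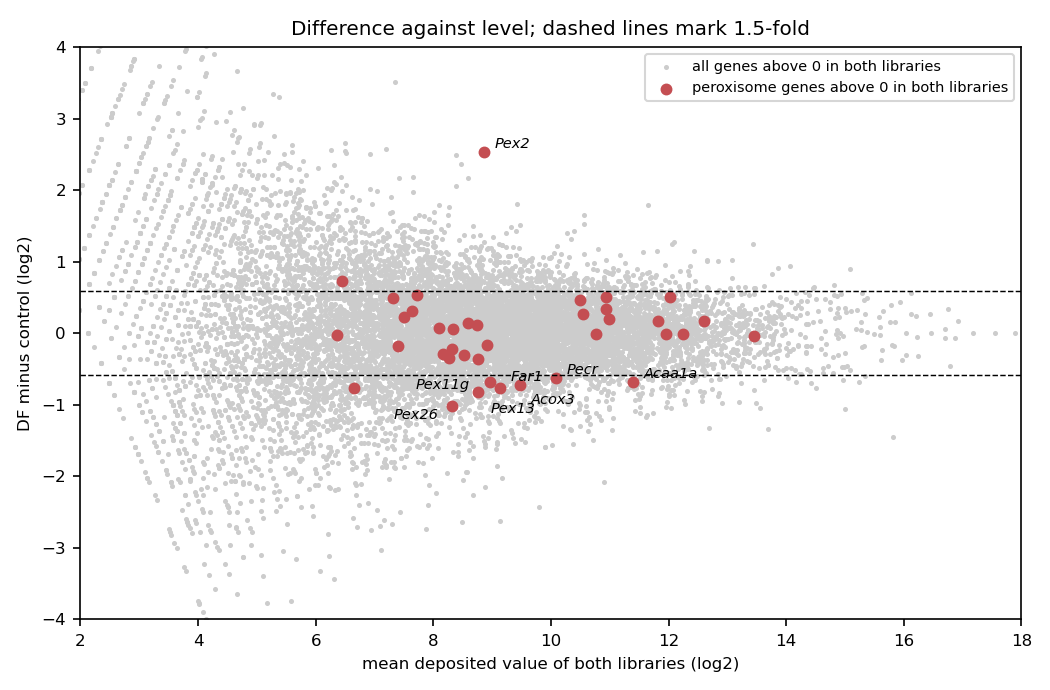
DF minus control (log2) against the mean log2 value for genes above 0 in both libraries (grey; 109 lie outside the plotted area) and for 38 peroxisome genes (red), with those past 1.5-fold at the level floor named. Pex2 stands at 2.54, a difference that 3 other examined genes equalled or exceeded, and the 7 lower genes lie between -1.02 and -0.63.

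Among the import receptors and docking factors, the receptors were at higher values with DF and the docking factor Pex13 at a lower one. Pex5, the receptor for the common C-terminal targeting signal, was at 10.27 in control cells and 10.73 in DF cells, 1.37-fold higher. Pex7, the receptor for the rarer N-terminal signal, was at 7.46 and 7.99, 1.45-fold higher but under the floor in both. Pex13, which forms the docking site with Pex14, was at 9.18 and 8.35, 1.78-fold lower, whereas Pex14 was at 8.68 and 8.79. Pex5 and Pex14 therefore stayed within 1.5-fold while Pex13 did not. Exons of Pex13 (chromosome 11, 23646479 to 23665959, minus strand, GRCm38) overlap Pus10 on the other strand, away from its 3' end; Pus10 was at 8.01 and 8.09. The sources used here do not say whether reads were counted by strand.

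The ubiquitin ligase subunits of the import machinery differed unequally. Pex2, one of the RING proteins that tag PEX5 for recycling, was at 7.59 in control cells and 10.13 in DF cells, a linear value of 193 against 1119. This was a 5.80-fold difference, equalled or exceeded by 3 other genes among the 6761 examined. Its control value lay under the floor, so it was examined through its DF value. Pex10, another RING subunit, was at 6.38 and 6.36, under the floor in both. Pex2 (chromosome 3, 5560188 to 5576239, minus strand) shares no exon with another annotated gene and no 75-base stretch of its last 500 bases with another gene's transcripts.

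Pex6 and Pex26 encode parts of the complex that extracts PEX5 from the membrane. Pex26, the membrane anchor of the ATPases, was at 8.83 in control cells and 7.81 in DF cells, 2.03-fold lower. Pex6, an ATPase of the complex, was at linear values of 511.5 and 454.8, 1.12-fold lower. Of the pair, only the anchor was past 1.5-fold, and its DF value lay under the floor. The overlaps of Pex26 (chromosome 6, 121183667 to 121198837, plus strand) with annotated exons involve no coding gene.

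Genes for membrane assembly differed little. Pex16 and Pex3, which recruit newly made membrane proteins, were at 11.97 against 11.96 and at 8.68 against 8.37. Pex19, their soluble chaperone, was at 12.52 and 12.68. None of the 3 reached 1.5-fold; Pex3 was 1.24-fold lower, Pex19 1.12-fold higher. The PEX11 proteins elongate and divide peroxisomes, and of their genes examined here only Pex11g passed 1.5-fold. Pex11a, inducible through PPAR alpha in mouse liver, was at 11.74 and 11.91, and Pex11g at 9.31 and 8.62, 1.61-fold lower.

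**Figure D3:**
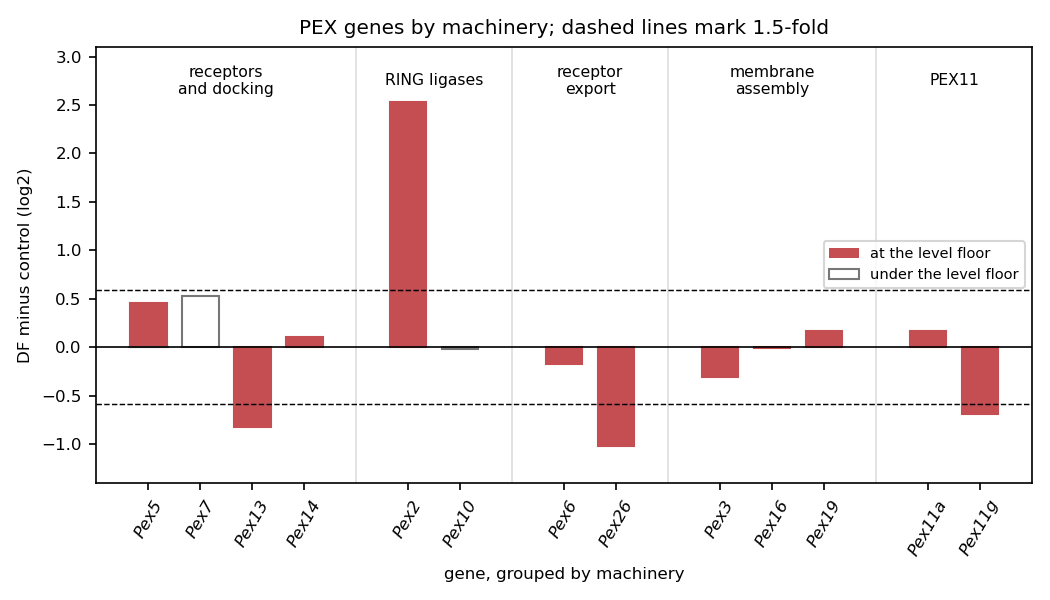
DF minus control (log2) for the 13 PEX genes, grouped by machinery; open bars are genes under the level floor in both libraries and dashed lines mark 1.5-fold. Pex2 stands at 2.54, while Pex13, Pex26 and Pex11g lie at -0.83, -1.02 and -0.69.

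Of 5 genes for membrane transporters and channels, 3 were examined and 0 passed 1.5-fold, against 10.2% of all genes upwards and 10.9% downwards. Abcd3, an ABC transporter that brings branched and bile acid intermediates into the peroxisome, was at 10.42 in control cells and 10.69 in DF cells. Abcd2, its relative for very-long-chain fatty acids, was at 6.08 and 6.81, 1.65-fold higher but under the floor in both libraries. Abcd4, a family member that works in lysosomal vitamin B12 export, was at 7.07 and 7.57, under the floor too. The 3 ABC genes thus all had higher values with DF, none of them counted. Pxmp2, a membrane channel protein, was at 8.53 and 8.66, and Pxmp4, a membrane protein, at 8.95 and 8.58. An antisense gene covers part of the Pxmp2 3' end.

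The core enzymes of peroxisomal beta-oxidation held 2 of the 7 lower genes. Acox3, an acyl-CoA oxidase for branched chains, was at 9.84 in control cells and 9.12 in DF cells, 1.65-fold lower. Acaa1a, a thiolase of the final step, was at 11.74 and 11.06, 1.60-fold lower, and had the highest values of the genes past 1.5-fold. Its near copy Acaa1b was at 7.49 and 7.31, under the floor in both. Acaa1a and Acaa1b share sequence: 32.9% of the 75-base stretches in the last 500 bases of Acaa1a also occur in Acaa1b. The sources used here do not say how such reads were assigned; summed, the pair had a linear value of 3595 in control cells and 2287 in DF cells, 1.57-fold lower. Acaa1a also overlaps Myd88 on the other strand, which was at 9.51 and 9.62.

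The other core genes were not counted. Those above 0 in both libraries differed by less than 1.5-fold, and most of the group lay under the floor. Scp2, which encodes both a thiolase for branched chains and a sterol carrier protein, was at 12.25 and 12.23. A pseudogene, Scp2-ps2, shares 59.9% of the 75-base stretches of its end. Hsd17b4, the D-bifunctional protein, was at 8.07 and 8.13, under the floor. Ehhadh, the L-bifunctional protein, was listed at 0 in both libraries. Both enzymes catalyse hydration and dehydrogenation. Of the pair, only Hsd17b4 was above 0, and it lay under the floor in both libraries.

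Auxiliary enzymes were split between higher and lower values. Pecr, which reduces trans-2-enoyl-CoA, was at 10.41 in control cells and 9.78 in DF cells, 1.55-fold lower. Ech1, a dienoyl-CoA isomerase found in peroxisomes and mitochondria, was at 10.69 and 11.19, 1.41-fold higher. Pecr alone of this group was counted. Amacr, the racemase for branched chains, was at 8.30 and 8.02, and Acot8, a thioesterase, at 8.31 and 8.37. The end of Acot8 overlaps Snx21 on the other strand (8.25 and 7.87). Decr2, the peroxisomal dienoyl-CoA reductase, was at 7.48 and 7.79, and Crot, which hands shortened chains to carnitine, at 7.38 and 7.61, both under the floor.

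Alpha-oxidation trims phytanic acid by a single carbon. Phyh, its hydroxylase, was at 8.42 in control cells and 8.21 in DF cells, and Hacl1, the lyase that follows, at 7.03 and 6.26. Hacl1 was 1.70-fold lower but under the floor in both libraries, so it was not counted. Ether lipid synthesis starts in the peroxisome with Gnpat and Agps and uses fatty alcohols made by Far1. Far1 was at 9.52 and 8.75, 1.70-fold lower. Agps was at 8.45 and 8.10, 1.28-fold lower, whereas Gnpat was at 10.88 and 11.09, 1.15-fold higher. Of these 3 genes, only the fatty alcohol enzyme was counted. Far1 (chromosome 7, 113513834 to 113571511, plus strand) overlaps only an antisense transcript, Far1os, at 1.00 and 0.

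The redox enzymes stayed within 1.5-fold. Idh1, which makes NADPH in the cytosol and the peroxisome and had the highest value of the 39, was at 13.48 in control cells and 13.44 in DF cells. Cat, catalase, which breaks down hydrogen peroxide, was at 11.77 and 12.28, 1.42-fold higher. Among examined genes with a mean of 12 or more, 5.03% were higher by at least 1.5-fold, which Cat did not reach. Both matrix proteases stayed inside the limit. Tysnd1, which trims imported beta-oxidation enzymes, was at 10.77 and 11.11, and Lonp2, a quality-control protease, at 10.78 and 10.76.

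Other peroxisomal genes were counted as higher about as often as genes in general, and none was counted as lower. Of 55 counted here, 31 were examined, 3 (9.68%) passed 1.5-fold upwards and 0 downwards, against 10.2% and 10.9% of all genes, with a median of 0.10 over the 37 above 0 in both. Gstk1, a glutathione transferase of peroxisomes and mitochondria, was at 6.56 and 8.74. The control value of Gstk1 lay under the floor, so it was examined and counted only through its DF value. Slc27a4, a fatty acid transport protein of several membranes, was at 9.60 and 10.38, and Nudt7, a peroxisomal CoA diphosphatase, at 10.30 and 10.91. The highest values were those of Sod1 (14.60 and 14.09) and Prdx1 (13.14 and 13.24), antioxidant enzymes found mostly in the cytosol. That the lists differ from each other was not tested.

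In each of the lists next to the pathway, at most 1 gene was counted in either direction. In fission machinery shared with mitochondria, 1 of 3 examined was lower (33.3%, against 10.9% of all genes), the adaptor Mff (9.40 to 8.77), and the dynamin Dnm1l was at 11.59 and 11.25. In turnover, 0 of 6 passed 1.5-fold, against 10.2% of all genes upwards and 10.9% downwards. Sqstm1 (p62), an autophagy receptor, was at 12.66 and 12.91, and Stub1 at 12.48 and 12.72. Among later steps of ether lipid synthesis, Chpt1, a cholinephosphotransferase, was 1.82-fold higher (10.49 to 11.35) and Ept1, the ethanolamine counterpart, 2.01-fold lower (to 9.99). Each is 1 of 7 examined (14.3%), against 10.2% of all genes upwards and 10.9% downwards. Lpin1, a phosphatidate phosphatase, was at 14.10 and 13.96, and Agpat1, an acyltransferase, at 12.47 and 12.50. Of 8 examined PPAR receptors and partners, 0 passed 1.5-fold, against the same shares of all genes (10.2% and 10.9%). The highest, Rxrb and Ncor1, were at 12.87 and 13.07 and at 12.74 and 12.45. Ppara was under the floor, at 6.10 and 7.66.

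Mitochondrial beta-oxidation genes, which take up the chains that peroxisomes shorten, were counted as higher but not as lower. Among 16 at the floor, 5 passed 1.5-fold upwards (31.2%) and 0 downwards, against 10.2% and 10.9% of all genes, with a median of 0.32 over 19 genes, beside -0.01 for the peroxisome genes. Those 5 were Slc25a20, the carnitine carrier (6.34 to 8.51), Etfa (10.21 to 10.98), Cpt2 (10.66 to 11.31), Acadvl (12.35 to 12.99) and Acaa2 (9.64 to 10.25). The control value of Slc25a20 lay under the floor, so it was examined only through its DF value. Acaa2, the mitochondrial thiolase, and Acaa1a, the peroxisomal one, thus had opposite signs. Etfb, the highest of the list, was at 13.81 and 13.85. The difference between the lists was not tested.

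**Figure D4:**
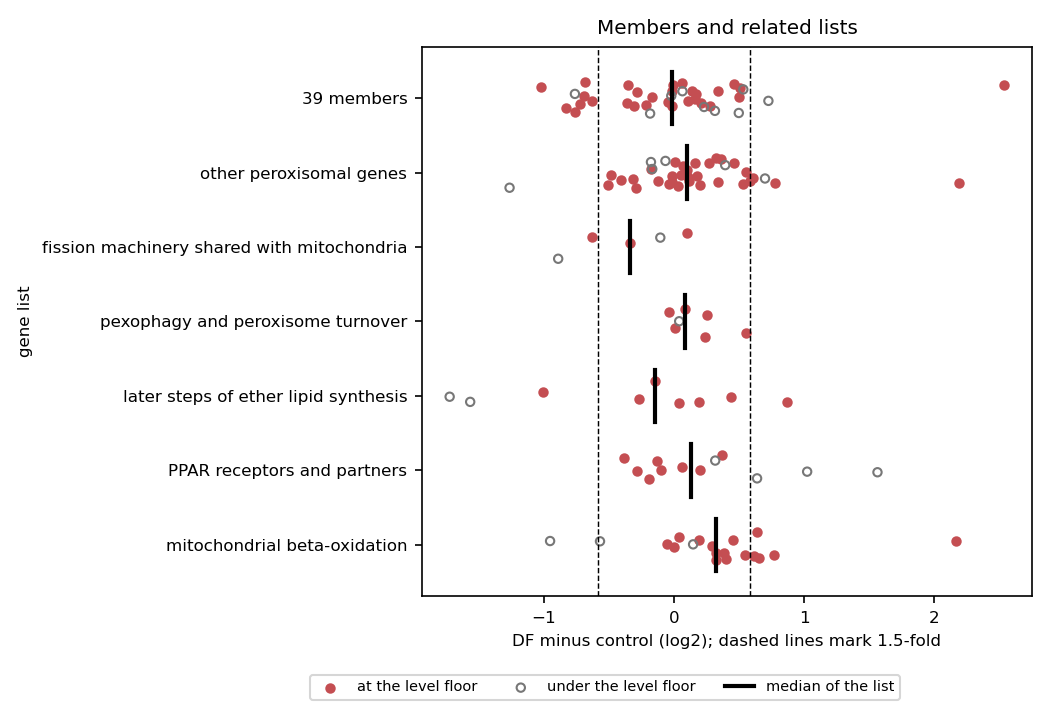
DF minus control (log2) of single genes above 0 in both libraries, for the 39 peroxisome genes and 6 related lists (rows); filled points reached the level floor, open points did not, and black bars are list medians. The medians are -0.01 for the peroxisome genes, 0.10 for other peroxisomal genes and 0.32 for mitochondrial beta-oxidation.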

How the data were processed

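Messenger RNA of 1 control and 1 DF library was measured; per the labels' protocols, 500 ng of total RNA went into a Lexogen kit for 3' ends, read as single 75 nt reads. The deposited files hold 1 log2 value per gene symbol, already normalized by the authors. Bowtie2, edgeR and mm10 are named in the submitters' processing notes; no version, read counter, annotation, strand setting or normalization is given in the sources used here. Of linear values under 1000, 100% lie within 0.001 of a multiple of 1/8, and the highest 140 sorted values are identical, while 13013 and 12337 genes are above 0. This pattern would arise from quantile normalization over more libraries than the 2 used here, so a value may depend on libraries not analysed here and differences in total output may be removed. Linear values were obtained by raising 2 to the deposited log2 value. With 1 library per group no p-value was computed.

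From the files, differences, folds, medians and counts at 1.5-fold and 2-fold were computed in Python 3.11.15 (pandas 2.3.3), with a level floor of 8.18. Positions, exon overlaps and shared 75-base stretches came from GENCODE vM21 (GRCm38). The 39 genes and all lists were chosen with earlier results of these data known. Named are the 39 genes and, per related list, the 2 genes of highest value and those past 1.5-fold; Ppara and the marker genes were named after their values were seen. A few genes that the rule names are not reported here. The counting rule was tested on simulated data. Planned checks of protein targeting signals were not run. Alternatives changed the floor, pseudocount (32), centring, scaling and gene set.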

Additional observations from a re-analysis of the deposited data

How the results depend on the processing

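The 7 lower genes stayed past 1.5-fold, with Pex2 the 1 higher gene, under a pseudocount of 32, centring on the median, a lowess trend, equal sums without Rn45s, and quantile normalization over genes above 0 in both. Equal sums and quantile normalization left Pecr, the lower gene nearest the limit, at -0.63, and centring on the median moved it to -0.67. These settings changed the values so little that they could hardly change a call. No difference of a single gene reversed; 3 of 38 moved by over 0.1 log2 units with the pseudocount (Pex2 to 2.36, Abcd2 to 0.53, Hacl1 to -0.58). The floor mattered more. With the floor required in both libraries, 0 genes were higher at either fold and 0 lower at 2-fold, because Pex2 and Pex26 each lie under it in 1 library. Without a floor, 2 were higher at 1.5-fold (Abcd2 joined) and 8 lower (Hacl1 joined). At a floor 1 log2 unit higher, 5 were lower at 1.5-fold and 0 at 2-fold, and the median at the floor moved from -0.020 to 0.076. With the pseudocount, 0 were lower at 2-fold. Shares of all genes were computed in the main setting only, so the counts under other settings have no such share beside them. Without the 11 genes whose exons overlap a coding gene or whose ends share sequence with another gene, 5 were lower. Acaa1a and Pex13 were among the genes left out. The median then moved from -0.014 to 0.064, while the median at the floor moved from -0.020 to -0.047. No paired analysis was possible because each group has 1 library. Depth is unknown, so no counting error or detection limit can be given, and genes under the floor are the least certain.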
